A study of Mus musculus with 2 samples.

Results

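The nuclear genes for the subunits of respiratory complexes II, III, IV and V, and for cytochrome c, were followed in long-read RNA sequencing of mouse gastrocnemius, a calf muscle. Members were taken by symbol from the deposited read counts: protein-coding genes whose names begin with Sdh, Uqcr or Atp5 (without the Sdhaf assembly factors), together with Cox5a, Cox5b, Cox6b1, Cox6c, Cox7b, Cox7c, Cyc1, Cycs, Usmg5 and Atpif1. This gave 40 genes with 39 symbols, on 17 chromosomes, of 15324 annotated genes with a read. Both libraries were made from total RNA of female B6CASTF1/J mice, first-generation hybrids of a B6 and a CAST parent, at 36 days of age. No treatment or altered allele is named. The labels give the females different numbers and the tissue pieces different entries but a shared donor entry. The tests below therefore compare these 2 libraries, not conditions, and their p-values take in counting error only.

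The respiratory chain passes electrons from nutrients to oxygen and stores the energy as a proton gradient across the inner mitochondrial membrane. Complex II (succinate dehydrogenase) feeds electrons to ubiquinone, complex III passes them to cytochrome c, and complex IV passes them to oxygen. Complex V, the ATP synthase, lets protons flow back and makes ATP. Slow and oxidative muscle fibres are known for holding more mitochondria than fast glycolytic fibres. Complex II is encoded only in the nucleus, whereas complexes III, IV and V also hold subunits encoded in mitochondrial DNA.

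Levels are given as CPM, read counts scaled to a common total of reads in annotated mouse genes, of which replicate 1 had 797105 and replicate 2 had 1602272. A single read equals 1.25 CPM in the first library and 0.624 CPM in the second. Folds are the CPM of replicate 2 over that of replicate 1 and carry exact 95% intervals for counting error. Summed fast muscle markers went from 36.4% to 24.2% of reads between replicates 1 and 2, with 1 of the 7 called lower in replicate 2. That was Atp2a1, at 0.274-fold, from 110003 to 30171 CPM. Apart from it the ratios ran from 0.602 (Myh4) to 1.14 (Tnnc2), and 1 of the 7, Tnnc2, lay above 1. The 6 markers of slow muscle, among them Myh7 and Tnnc1, summed to 14 reads in replicate 1, where 3 of them had none, and to 12508 reads in replicate 2. All 6 were called higher. Of the 5 blood markers, 4 were called lower in replicate 2 and their summed share went from 0.256% to 0.0554%. Of the 5 adipocyte markers, 3 were called lower (0.0642% and 0.0316% of reads), and 1 of the 4 markers of Schwann cells and nerve was too. The 3 heart markers had no read in replicate 1 and 1 read in replicate 2, and the brown fat marker Ucp1 had none in either. No marker of endothelium or of immune cells was called, and 1 of the 4 fibroblast markers was called lower. The part of the fibre type markers in the differences below was not tested.

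The subunit genes together held 24623 reads, or 3.09%, in replicate 1 and 94765 reads, or 5.91%, in replicate 2 (mean 4.50% ± 2.00, SD, n = 2). The summed level was thus 1.91-fold higher in replicate 2 (95% interval 1.89 to 1.94). Of the 40 genes, 39 had at least 10 reads summed over the libraries and were tested among 8096 genes. All 39 ratios lay above 1, against 51.5% of all tested genes. With Fisher's exact test, two-sided, and Benjamini-Hochberg adjustment over the 8096 genes, 36 of the 39 passed an adjusted p of 0.05 in that direction, against 12.0% of all genes. A 2-fold difference was also reached by 11 of 39, which were called higher, against 5.78% of all genes. Called lower were 0 of 39, against 5.47%. The shares of all genes passing or called, here and below, were not matched for read depth or transcript length. Among other genes with at least 200 reads, the share called higher at 2-fold was above 5.78% in every length class. It was highest from 601 to 1000 nt (20.7%), the class of the members' median length, and lowest above 2500 nt (8.47%). With a limit of 1.5-fold in place of 2-fold, 33 of 39 members were called higher, against 10.2% of all genes, and 0 lower, against 7.58%. The median log2 ratio of the members, with 1 CPM added to each value, was 0.91, and that of all tested genes was 0.05.

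The 2-fold limit ran through the middle of the members. Of the 39 ratios, 11 fell between 1.9 and 2.1, and 7 of those were just under 2. The count of called members was therefore sensitive to scaling. Scaled to a total without Atp2a1, the calcium pump that alone took 110003 CPM in replicate 1 and 30171 CPM in replicate 2, 4 members were called higher, against 4.3% of all genes, and the median of all genes moved from 0.05 to -0.07. The share of higher among all called genes then went from 51.4% to 38.0%.

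**Figure D1:**
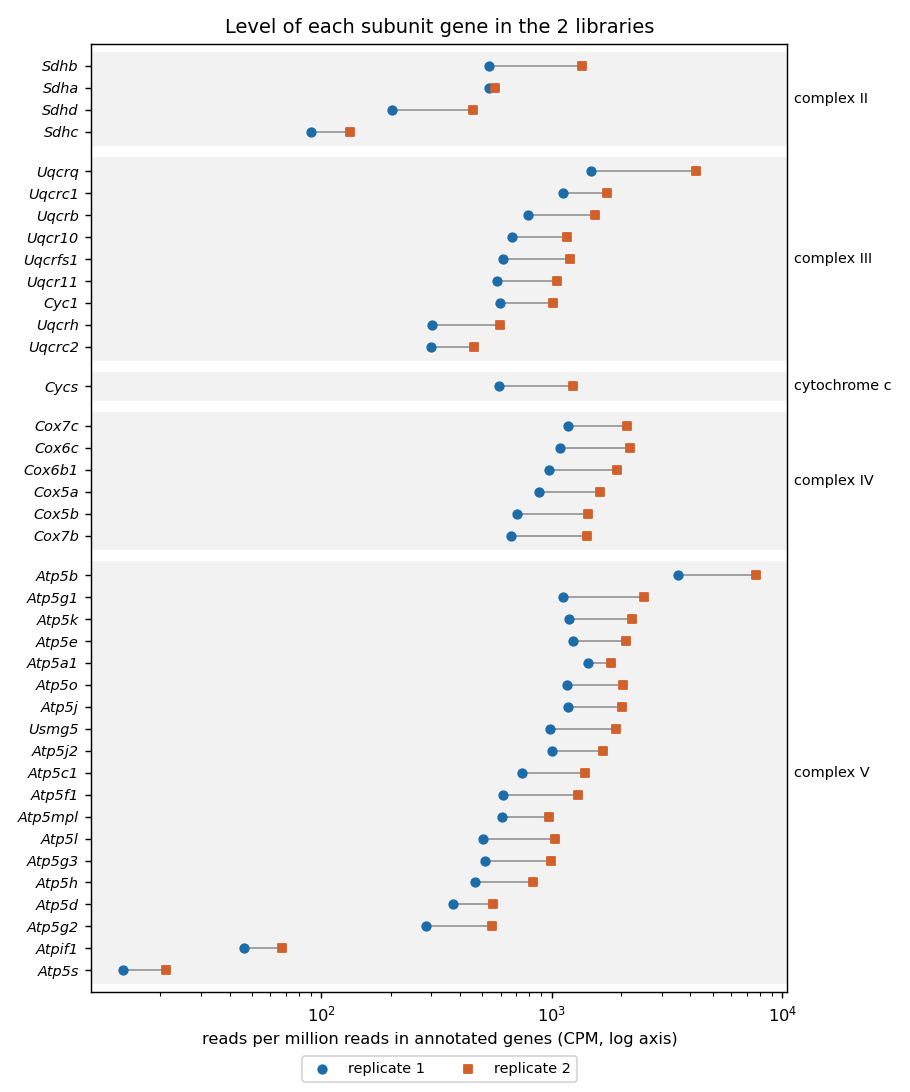
Level of each of the 39 tested subunit genes in CPM (log axis), by complex and ordered by mean level. Circles are replicate 1 and squares replicate 2, and in all 39 genes the square lies to the right.

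Complex II, made of 4 subunits, held the fewest reads of the complexes, 1084 and 4028. The catalytic flavoprotein gene Sdha had 536 CPM in replicate 1 and 568 CPM in replicate 2. Its ratio of 1.06 (0.944 to 1.19) was the lowest of the 39, and the libraries did not differ by Fisher's exact test (adjusted p = 0.574). The iron-sulfur subunit gene Sdhb had 532 and 1357 CPM (mean 944 ± 583, SD, n = 2), a ratio of 2.55 (2.30 to 2.84; adjusted p = 5.89e-82, Fisher's exact test). The membrane anchor gene Sdhd had 202 and 456 CPM and was also called, at 2.26-fold (1.90 to 2.69; adjusted p = 2.43e-22, Fisher's exact test). The other anchor gene, Sdhc, had 90.3 and 134 CPM, a ratio of 1.48 that passed the p threshold but not the fold minimum. Within the same complex, the intervals of Sdha and Sdhb were thus far apart.

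The direction of Sdha depended on which models were counted. The deposited models fall into classes. Known models match an annotated transcript. Incomplete models hold part of one, as a run of its introns or as a single exon. Genomic models overlap a gene without matching its splicing. Reads without a splice junction can thus be classed as incomplete or as Genomic. Sdha had 48 and 251 reads in single-exon Genomic models. On Known models alone it had 339 and 544 reads, a ratio of 0.787 with an adjusted p of 0.00417 by Fisher's exact test, lower in replicate 2 but short of 2-fold. On the total without Atp2a1 the ratio was 0.973. Library ratios on some model classes only, here and below, use the total reads of those classes.

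Sdhb lies at chr4:140961203-140979193 on the plus strand of mm10, and its leading transcript, Sdhb-201, took 89.4% of its reads in both libraries. A minor acceptor 6 bases inside exon 2 was used by 24 of 407 reads in replicate 1 (5.90%, exact interval 3.81 to 8.65) and 126 of 2084 in replicate 2 (6.05%, 5.06 to 7.16). The shares overlapped although the level of the gene differed 2.55-fold. The annotated junction is shown after splicing, and the capitals are the 6 bases that the minor acceptor leaves out, a multiple of 3.
Sdhb exon 1 to 2: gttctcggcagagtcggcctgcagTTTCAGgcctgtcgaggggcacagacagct

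Complex III held 9 members with 5146 and 20822 reads. Its 2 core proteins, Uqcrc1 (1119 and 1740 CPM) and Uqcrc2 (299 and 461 CPM), had the lowest ratios of the complex, 1.55 and 1.54. The redox subunits lay a little higher, with the Rieske iron-sulfur protein gene Uqcrfs1 at 617 and 1205 CPM (1.95-fold) and cytochrome c1, Cyc1, at 596 and 1013 CPM (1.70-fold). All 4 passed the p threshold and none reached 2-fold.

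Among the small subunits, Uqcrb had 785 and 1539 CPM, Uqcr10 had 675 and 1167 CPM, Uqcr11 had 581 and 1051 CPM, and the hinge protein gene Uqcrh had 302 and 599 CPM. Their ratios ran from 1.73 to 1.98. Uqcrq had the highest level of the complex, 1482 CPM in replicate 1 and 4221 CPM in replicate 2 (mean 2851 ± 1937, SD, n = 2), and the highest ratio of all 39 members, 2.85 (2.68 to 3.03; adjusted p = 3.23e-301, Fisher's exact test). It was the only member of complex III called.

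Much of Uqcrq came from reads without a splice junction. In replicate 1 there were 551 reads in the class of single-exon incomplete models, 46.7% of the gene's reads. In replicate 2 there were 4068 in that of single-exon Genomic models, 60.2%. The 2-exon transcript Uqcrq-201 took 583 and 2479 reads. It was the leading model in replicate 1 and second in replicate 2, and Uqcrq was the 1 gene of 38 whose leading model differed between the libraries. Counted on Known models alone, the ratio was 2.09 and the gene was still called (adjusted p = 3.22e-69, Fisher's exact test).

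Cyc1, at chr15:76343523-76346260 on the plus strand, used a second acceptor 22 bases upstream of that of exon 2 in 12 of 449 reads (2.67%, 1.39 to 4.62) and 29 of 1500 reads (1.93%, 1.30 to 2.76). The intervals overlapped. The spliced junction is shown for both acceptors, with the added bases in capitals. Since 22 is not a multiple of 3, the added bases shift the reading frame.
Cyc1 exon 1 to 2: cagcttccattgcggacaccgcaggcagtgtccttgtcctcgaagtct
Cyc1 exon 1 to 2 with upstream acceptor: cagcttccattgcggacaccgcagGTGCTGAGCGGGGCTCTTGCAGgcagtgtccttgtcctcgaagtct

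Cytochrome c, the mobile carrier between complexes III and IV, is encoded by Cycs. It had 588 and 1234 CPM, and the ratio of 2.10 (1.90 to 2.32) was called (adjusted p = 7.16e-52, Fisher's exact test). Its reads were nearly all Known, 97.2% and 94.7%.

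The 6 members of complex IV had the narrowest range of ratios of the complexes, from 1.81 to 2.13, with a median of 1.996. Cox7c had the highest mean level, 1176 and 2128 CPM (mean 1652 ± 674, SD, n = 2; ratio 1.81, 1.68 to 1.95; adjusted p = 2.02e-62, Fisher's exact test), and was not called. Cox6c had 1081 and 2182 CPM (2.02-fold, 1.87 to 2.18; adjusted p = 2.39e-84, Fisher's exact test). Cox5b had 710 and 1430 CPM (2.01-fold, 1.84 to 2.21; adjusted p = 5.53e-55, Fisher's exact test). Both stood just above the limit, and 2 others, Cox6b1 (974 and 1927 CPM, 1.98-fold) and Cox5a (878 and 1618 CPM, 1.84-fold), just below it. Cox7b, at 664 and 1415 CPM, was called too (2.13-fold, 1.94 to 2.35; adjusted p = 9.50e-62, Fisher's exact test). The intervals of Cox5a, Cox5b, Cox6b1, Cox6c and Cox7c overlapped one another, so the called and uncalled members of complex IV were not separated by counting error. Replicates 1 and 2 differed in every one of the 6 at an adjusted p below 0.05.

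Complex V held 20 genes and 55.0% and 53.6% of the members' reads, 13554 and 50793. In the F1 head, the catalytic beta subunit gene Atp5b was the most abundant member of all, with 3534 and 7667 CPM (mean 5601 ± 2923, SD, n = 2). It was called, at 2.17-fold (2.08 to 2.26), with an adjusted p by Fisher's exact test too small to be written as a number. The alpha subunit gene Atp5a1, whose product alternates with beta in the head, had 1431 and 1813 CPM, and its ratio of 1.27 (1.18 to 1.36) was the second lowest of the 39. The gamma subunit gene of the central stalk, Atp5c1, had 743 and 1396 CPM (1.88-fold). The delta subunit gene Atp5d had 371 and 556 CPM (1.497-fold), and the epsilon subunit gene Atp5e had 1239 and 2093 CPM (1.69-fold). Atp5b was the only gene of the head that was called.

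The gap between beta and alpha was small on Known models. Over all models there were 2.47 Atp5b reads per Atp5a1 read in replicate 1 (2.30 to 2.65) and 4.23 in replicate 2 (4.06 to 4.40), intervals that do not overlap. On Known models alone the ratio was 1.17 (1.08 to 1.28) and 1.15 (1.09 to 1.21). Per kilobase of the leading annotated transcript, these Known ratios were 1.52 and 1.49. On Known models the between-library folds of the pair were also close, 1.20 for Atp5b and 1.22 for Atp5a1. This comparison was chosen after the values were seen.

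The incomplete reads of Atp5b fell on 1 chain. A model with only the last 2 of 10 exons took 1475 of 2817 reads in replicate 1 (52.4%, 50.5 to 54.2) and 8733 of 12285 in replicate 2 (71.1%, 70.3 to 71.9). The full transcript Atp5b-201 took 1194 and 2915 reads, 42.4% and 23.7%. Chains of 3 to 9 exons were rare beside it, the most frequent of them with 28 and 186 reads. The first base of the 2-exon model equals an annotated exon start in both libraries, so where in exon 9 these reads began cannot be read from the deposited models.

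In the membrane rotor, subunit c is encoded by Atp5g1, Atp5g2 and Atp5g3, which give the same mature peptide with different import sequences. Atp5g1 had 1122 and 2521 CPM and was called, at 2.25-fold (2.09 to 2.42; adjusted p = 2.67e-122, Fisher's exact test). Atp5g3 had 512 and 995 CPM (1.94-fold) and Atp5g2 had 286 and 552 CPM (1.93-fold). Atp5g1 thus held 58.4% of the reads of the 3 genes in replicate 1 (55.9 to 60.9) and 62.0% in replicate 2 (60.8 to 63.2), and the order of the 3 was the same in both. On Known models it held 65.8% and 72.3%. The order changed when reads of pseudogene copies, described further on, were added to the genes that have them, Atp5g1 and Atp5g2. Atp5g2 then came second with 32.6% and 25.6%.

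The last 90 coding bases of the 3 genes are shown because they make the same protein end with different letters. Capitals mark the positions at which the 3 differ. Over the last 228 coding bases Atp5g1 and Atp5g2 were 85.1% identical, and 32 of their 34 differences were at the third base of a codon. Atp5g3 was 79.8% identical to Atp5g1 and 78.5% to Atp5g2. These differences let a read that covers the coding end be told apart between the genes.
Atp5g1 last coding bases: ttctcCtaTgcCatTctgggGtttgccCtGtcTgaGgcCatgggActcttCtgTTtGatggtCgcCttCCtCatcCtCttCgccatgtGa
Atp5g2 last coding bases: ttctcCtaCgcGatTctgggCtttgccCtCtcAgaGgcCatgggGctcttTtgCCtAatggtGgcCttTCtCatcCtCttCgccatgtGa
Atp5g3 last coding bases: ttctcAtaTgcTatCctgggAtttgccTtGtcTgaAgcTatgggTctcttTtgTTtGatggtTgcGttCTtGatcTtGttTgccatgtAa

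Those stretches lie on the minus strand of mm10, at chr11:96073104-96073193, chr15:102663014-102663103 and chr2:73908593-73908682.

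The peripheral stalk holds the head still while the rotor turns. Its gene for subunit b, Atp5f1, had 612 and 1304 CPM and was called, at 2.13-fold (1.93 to 2.35; adjusted p = 1.12e-56, Fisher's exact test). The subunit d gene Atp5h had 467 and 833 CPM (1.78-fold), the F6 gene Atp5j had 1177 and 2024 CPM (1.72-fold), and Atp5o, for the subunit that joins stalk and head, had 1165 and 2048 CPM (1.76-fold). A second locus annotated with the symbol Atp5o had 1 and 2 reads and was not tested.

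For Atp5f1 and Atp5j the annotated full transcript was not the main one. Atp5f1 had no Known read in either library: a chain of 7 exons, without the first of the 8 exons of the annotated transcript, took 444 of 488 reads (91.0%, 88.1 to 93.4) and 1822 of 2089 (87.2%, 85.7 to 88.6). In Atp5j a chain of 4 exons, without the first of the 5 exons of the annotated transcript, took 735 of 938 reads (78.4%) and 2535 of 3243 (78.2%). The 5-exon transcript Atp5j-201 took 5.22% and 4.59%. Both genes are therefore classed as incomplete although each chain was the same in both libraries.

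Of the other membrane subunits, the subunit g gene Atp5l was called (502 and 1034 CPM; 2.06-fold, 1.85 to 2.30; adjusted p = 7.46e-42, Fisher's exact test). The subunit e gene Atp5k had 1187 and 2232 CPM (1.88-fold), and the subunit f gene Atp5j2 had 999 and 1673 CPM (1.67-fold). The small accessory subunit genes Usmg5, also known as Dapit, and Atp5mpl had 986 and 1900 CPM (1.93-fold) and 610 and 970 CPM (1.59-fold). All passed the p threshold, and Atp5l alone of these 5 reached 2-fold.

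The 2 genes around the enzyme rather than in it were rare. Atpif1, the inhibitor that blocks ATP hydrolysis by the synthase, had 37 and 108 reads, or 46.4 and 67.4 CPM, and the interval of its ratio of 1.45 included 1 (0.991 to 2.17). Atp5s, a factor associated with the synthase, had 11 and 34 reads, 13.8 and 21.2 CPM (0.761 to 3.36). With Sdha they were the 3 members that missed the p threshold.

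**Figure D2:**
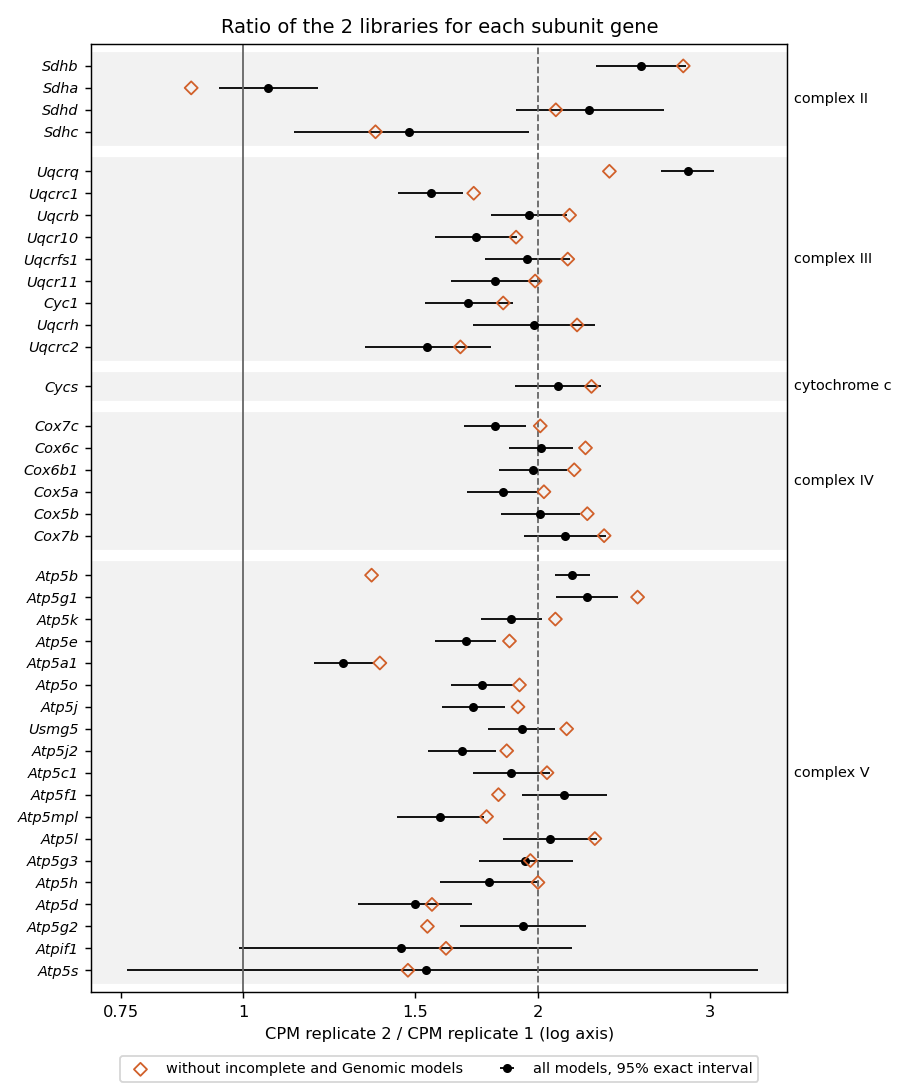
Ratio of CPM in replicate 2 to replicate 1 for each tested subunit gene (log axis). Each ratio uses the total reads of the models it counts. Filled points with bars are all models with exact 95% intervals, open diamonds leave out incomplete and Genomic models, the solid line is a ratio of 1 and the dashed line the 2-fold limit; Atp5b drops from 2.17 to 1.35 and Sdha from 1.06 to 0.885.

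Across the members the order of levels was much alike in the libraries, with a Spearman correlation of 0.96 over the 40 genes, which share the library and its depth. In replicate 1, 11 members lay above 1000 CPM, and in replicate 2, 27 did. Per kilobase of the leading transcript the highest mean levels were those of Atp5k (4608 CPM per kb), Usmg5 (3986), Atp5e (3958) and Cox6c (3244), all short. By that scale the leading member was Uqcrb in complex III, Cox6c in complex IV and Atp5k in complex V, and only in complex II was it the same gene, Sdhb, as by CPM. A long read is counted once whatever its length, so CPM is the scale used elsewhere. Ranked by mean CPM, 31 of 38 neighbouring pairs of symbols differed by less than the smaller of their SDs. These SDs hold the rise that the members share in replicate 2, so they do not measure doubt about the order within a library. The other pairs were Atp5b above Uqcrq, Uqcrq above Atp5g1, Atp5h above Sdha, Sdha above Atp5d, Sdhd above Sdhc, Sdhc above Atpif1 and Atpif1 above Atp5s.

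Transcript length differed between the members and the rest and moved with the library ratio. The median leading transcript of the members was 851.5 nt and that of all tested genes 2297 nt. Over the 8096 genes, length and log2 ratio had a Spearman correlation of -0.42, and over the 39 members it was -0.07. Beside genes of like length, the members' median log2 ratio was 0.91 against 0.49 up to 600 nt, 0.86 against 0.58 from 601 to 1000 nt, and 1.09 against 0.43 from 1001 to 1500 nt. From 1501 to 2500 nt it was 0.64 against 0.08 (7 members), and above 2500 nt 0.56 against -0.30 (3 members). The members' median was the higher one in all 5 length classes. The part of length in the difference was not tested further.

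Most members were read as full annotated transcripts. Known models took 80.5% of the members' reads in replicate 1 and 74.5% in replicate 2, against 66.6% and 67.6% over all genes. In 25 members in replicate 1 and 24 in replicate 2, over 90% of reads were Known. Incomplete and Genomic models together took 18.05% and 23.98%, and this share was higher in replicate 2 in 32 of 39 members. Over all genes the share was 15.4% and 23.8%, and it was higher in replicate 2 in 67.2% of 8031 tested genes read in both libraries. It exceeded 50% in Atp5b, Atp5f1, Atp5g2 and Atp5j in both libraries and in Uqcrq in replicate 2. In the median member it was 3.54% and 5.15%.

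**Figure D3:**
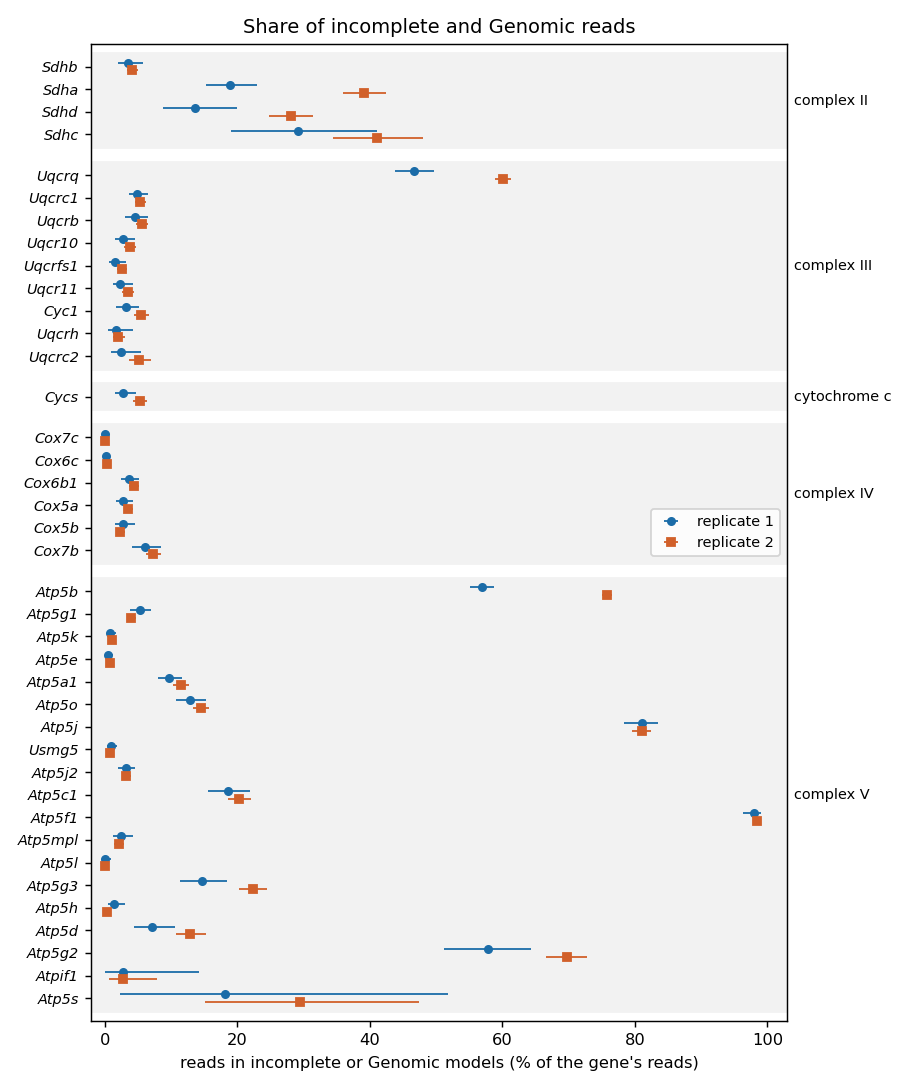
Share of each gene's reads in incomplete or Genomic models, in percent with exact 95% intervals, for replicate 1 (circles) and replicate 2 (squares). Atp5f1, Atp5j, Atp5b, Atp5g2 and Uqcrq have the highest shares, and Sdhc follows at 29.2% and 41.1%. Among the genes whose intervals lie apart between the libraries are Atp5b (57.0% and 75.8%), Sdha (19.0% and 39.1%), Sdhd (13.7% and 28.1%) and Uqcrq (46.7% and 60.2%).

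The calls moved with the classes counted, each time scaled to the total reads of those classes. On Known models 6 of 38 members were called higher, all of them among the 11 (background 4.45%), 0 were called lower (background 10.2%), and the median fold was 1.76. Atp5b, Cox5b, Cox6c and Sdhd fell under 2-fold, and Atp5f1 could not be tested. Without incomplete and Genomic models but with the other classes 19 of 39 were called (background 6.9%), 9 of them among the 11, 0 were called lower (background 8.8%), and the median fold was 1.99. The 2 lost were Atp5b, at 1.35, and Atp5f1, at 1.82 with 10 and 33 reads. The change of total also moved genes that kept nearly all their reads. Cox7c went from 937 and 3410 to 936 and 3408 reads, and from 1.81-fold to 2.01-fold. Atp5l kept its 400 and 1656 reads and went from 2.06-fold to 2.29-fold. The part of read completeness in the library difference was not tested.

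Of 170 member exons in 37 genes with at least 20 informative reads in each library, 137 were included in more than 95% of pooled reads, 33 in fewer than 5%, and none (0) lay between. An exon was set only against reads that skip it whole, so another splice site of the same exon does not enter here. Forms of an Atp5j exon with 73 and 836 reads in replicate 1 both counted as 100% included. Splice site choice is given further on. Over all 18577 tested exons, 90.3% were in the first class, 6.50% in the second and 3.24% between. By Fisher's exact test 0 of the 170 were called different, with an adjusted p under 0.05 and at least 10 points, against 0.0484% of 18577 exons of all genes. At an unadjusted p under 0.05 the count was also 0, and the largest difference was 3.19 points. At a minimum of 10 reads in each library no member exon was called either.

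The best known alternative exon of the set is in Atp5c1, where a 37-nt exon near the end of the coding region is skipped in muscle and kept in many other tissues. It lies at chr2:10056770-10056806 on the minus strand. It was kept in 9 of 586 reads in replicate 1 (1.54%, 0.705 to 2.90) and 21 of 2207 in replicate 2 (0.952%, 0.590 to 1.45). The intervals overlapped, so its use did not differ detectably while the gene's level differed 1.88-fold. The end of the reading frame is shown for both forms, with the bases after the exon junction in capitals: skipping gives 4 bases to the end of the stop codon and keeping the exon gives 7.
Atp5c1 exon skipped: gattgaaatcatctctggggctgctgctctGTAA
Atp5c1 exon included: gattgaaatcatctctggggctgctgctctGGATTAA

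By a rule set after the data were seen (5 reads in each library and 20 summed), 21 minor splice sites were found in 13 members. A rare exon inside a main intron counts there as both an acceptor and a donor. This was the case in Atp5c1, Atp5j, Usmg5 and Uqcr10, so the sites are not all separate events. Of the 21 sites, 20 had overlapping intervals and 1 did not. Over all genes, the same rule gave 1152 sites, of which 6.6% had intervals apart. Atp5j used an acceptor 5 bases from the main one in 8.30% and 8.09% of reads, and Atp5g3 a donor 10 bases away in 25.4% and 25.7%. Cox7c used a minor acceptor in 1.93% and 2.09% of reads. Usmg5 (2.93% and 2.89%) and Uqcr10 (3.65% and 3.74%) each used the acceptor of an extra exon inside the main intron. In all of these the shares of the libraries were within counting error of each other. The exception was a donor of Atp5g1, 70 bases upstream, which belongs to a longer annotated transcript and was used in 162 of 822 reads (19.7%, 17.0 to 22.6) and 526 of 3802 (13.8%, 12.8 to 15.0). Its adjusted p over the 1152 sites was 0.00103 by Fisher's exact test. The rule sees splice sites only, not transcripts that begin elsewhere. The annotated 3-exon transcript Cox6c-203 took 9.16% of the reads of Cox6c in replicate 1 (7.32 to 11.3) and 14.0% in replicate 2 (12.9 to 15.2). It was named after its values were seen, with no share over all genes beside it.

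**Figure D4:**
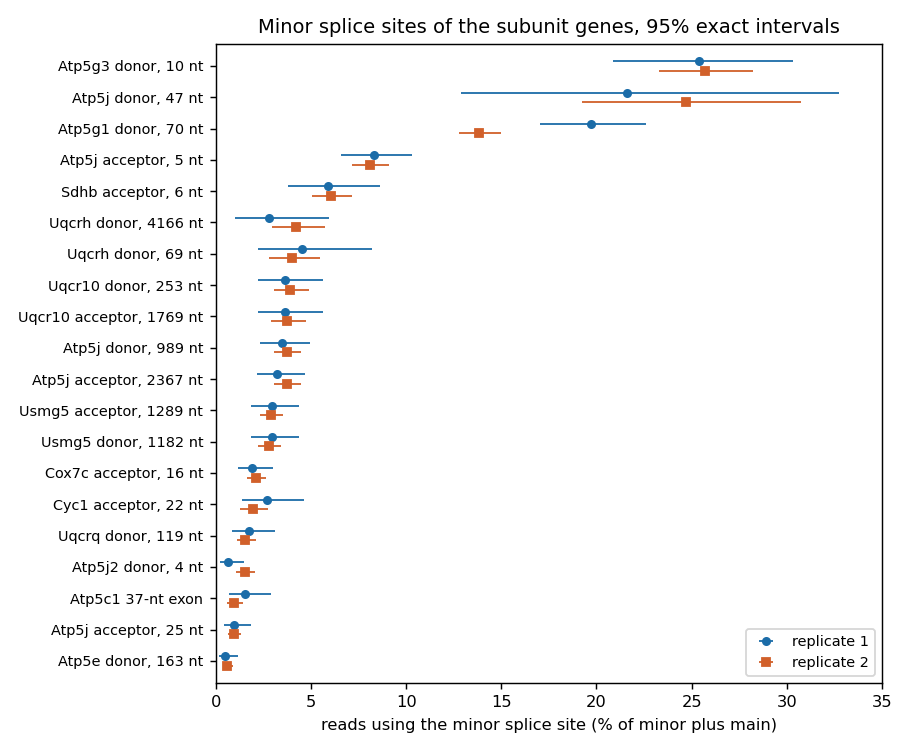
Reads that used the minor splice site of a pair, in percent of minor plus main with exact 95% intervals, for 20 choices (the 37-nt exon of Atp5c1 is drawn once), labelled by the distance to the main site. Rare exons of Atp5j, Usmg5 and Uqcr10 are each drawn as an acceptor and a donor. Circles are replicate 1 and squares replicate 2; only the Atp5g1 donor shows intervals that do not overlap.

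Several subunit genes have near-identical processed copies elsewhere in the genome. Of 24 annotated pseudogenes that share at least 50% of their 25-nt words with a member transcript, 15 had reads, 1231 in replicate 1 and 4505 in replicate 2, equal to 4.999% and 4.75% of the members' reads. The 9 with at least 20 reads were Gm12338 (copy of Cox7c, 380 and 1665 reads), Gm14539 (Usmg5, 302 and 1275), Gm10175 (Atp5g2, 166 and 669), Gm10231 (Atp5g2, 247 and 393), Gm10221 (Atp5l, 63 and 274), Gm10250 (Atp5h, 25 and 81), Gm10108 (Cycs, 9 and 79), Gm2962 (Uqcrb, 7 and 25) and Gm10039 (Atp5g1, 26 and 17). Gm12338, Gm14539, Gm10175, Gm10231 and Gm10221 share all of their words with the member, so reads of the gene and of the copy may have been split by the counting. Whether a read came from the gene or the copy cannot be told apart from these counts.

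Adding the copies changed the level most for Atp5g2, where they held 64.4% and 54.5% of the summed reads. The library ratio of Atp5g2 then went from 1.93 to 1.51, because Gm10231 had a ratio of 0.792. For Cox7c the copies held 28.9% and 33.0% and the ratio went from 1.81 to 1.92. For Usmg5 they held 27.8% and 29.5% and the ratio went from 1.93 to 1.97. No other member gained more than 15% of its summed reads. A protein-coding annotation, Gm11273, named after its values were seen, shares 79.5% of its words with Cox5b and had 133 and 565 reads.

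**Figure D5:**
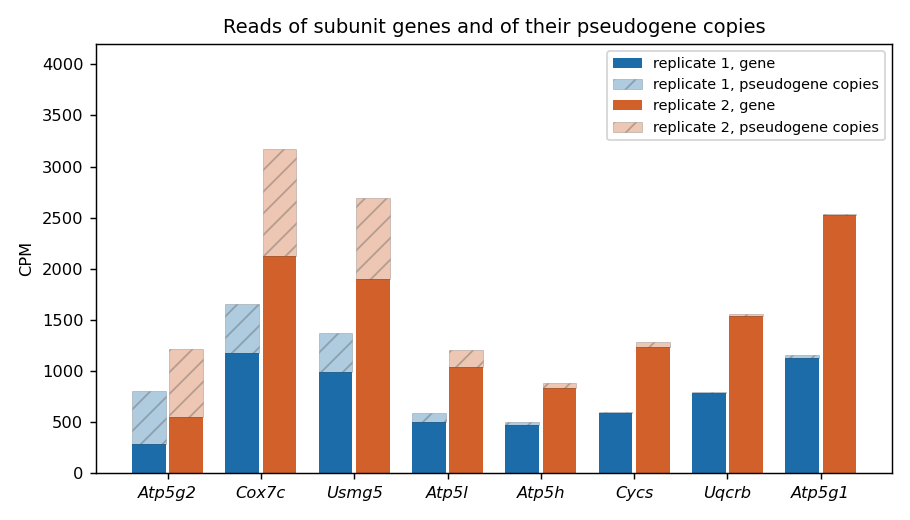
Level in CPM of 8 subunit genes (solid) and of their pseudogene copies (hatched), for genes whose copies had at least 20 reads, in replicate 1 (left bar) and replicate 2 (right bar). In Atp5g2 the hatched part exceeds the solid part in both libraries.

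Promoters of respiratory genes are known for sites of NRF1, of the ETS factor GABPA (also called NRF2) and of YY1. RefSeq promoter sequences (GRCm38.p6, 250 bases before to 50 after the start) matched 31 of the 39 symbols. Not matched were Atp5a1, Atp5mpl, Cox6c, Cyc1, Sdhc, Uqcrb, Uqcrc2 and Uqcrq. The letters of the 10-letter NRF1 motif are the first run of capitals in the Atp5k promoter shown. On either strand, it was present in a promoter of 3 of 31 genes (9.68%), Atp5g2, Atp5k and Uqcrc1. This was set against 0.971% of 32851 promoters and 2.51% of 6296 tested genes. The first of these shares, here and below, counts single promoters, and only the second counts genes as for the members. CCGGAAG (ETS) was present in 11 (35.5%), against 8.86% and 22.3%. GCCATNTT (YY1) was present in 6 (19.4%), against 6.05% and 11.5%. Matches of different motifs overlapped in promoters of 0 of the 31 genes, and a match is a run of letters, not a bound site.

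Promoter stretches of 4 genes are shown, those of highest level that hold a motif, with the matches in capitals and the reverse complement of a motif where it reads on the other strand. In Atp5b the YY1 letters begin 17 bases after the start. In Atp5k the NRF1 letters lie 50 bases before the start and the ETS letters 12 bases after it. Atp5e has ETS letters 102 bases before the start, and Atp5j has ETS and YY1 letters 61 and 88 bases before. For Atp5j the RefSeq start lies within the second exon of the annotated transcript, the exon in which the 4-exon chain above begins.
Atp5b, chr10:128083304-128083336, plus strand: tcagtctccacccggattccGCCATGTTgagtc
Atp5k, chr5:108434370-108434469, minus strand: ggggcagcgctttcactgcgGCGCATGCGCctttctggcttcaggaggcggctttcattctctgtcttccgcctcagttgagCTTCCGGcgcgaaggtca
Atp5e, chr2:174464177-174464223, minus strand: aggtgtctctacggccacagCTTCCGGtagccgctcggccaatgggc
Atp5j, chr16:84835011-84835084, minus strand: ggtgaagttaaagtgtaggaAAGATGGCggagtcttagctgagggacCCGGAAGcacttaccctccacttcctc

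Other genes of the same complexes, outside the symbols used here, were set beside the members. Of 11 further subunit genes with reads, 9 were tested, 7 were called higher, against 5.78% of all genes, and 0 lower, against 5.47%. Their median log2 ratio was 1.12. Minos1, a gene for the folds of the inner membrane and no subunit, is on the same list, left out of these counts, and was called higher. The subunit genes include the isoforms typical of heart and skeletal muscle, Cox7a1 (445 and 1425 CPM), Cox6a2 (2098 and 5035 CPM) and Cox8b (1276 and 2286 CPM, not called), and the general subunit gene Cox4i1 (2741 and 6396 CPM). Of 36 assembly factors, 34 were tested, 6 were called higher, against 5.78% of all genes, and 0 lower, against 5.47%, with a median of 0.64. The 6 were Cox19, Cox20, Fmc1, Pet100, Sco2 and Sdhaf4. Of these, Sdhaf4, which helps to assemble Sdha, had 67 and 429 reads. In replicate 2, 309 of its reads were in single-exon Genomic models.

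Of 17 regulators of respiratory genes, 14 were tested, 3 were called higher, against 5.78% of all genes, and 0 lower, against 5.47%. The median log2 ratio was 0.04, beside 0.05 for all tested genes. The 3 were Esrra, Perm1 and Esrrg. The nuclear receptor gene Esrra had 251 and 2879 reads, but 241 and 2852 of these were in single-exon Genomic models and only 9 and 22 were Known. Perm1, a muscle regulator of oxidative genes, had 25 and 175 reads, of which only 7 and 16 were Known. Esrrg had 0 and 17 reads, with 0 Known in either library and 9 of the 17 in single-exon Genomic models. The factors whose motifs were searched were barely read, Nrf1 with 9 and 10 reads, Gabpa with 13 and 16 and Yy1 with 5 and 13. The ratios were 0.553, 0.612 and 1.29, and none passed the p threshold (adjusted p = 0.458, 0.472 and 0.934, Fisher's exact test).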

How the data were processed

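Both libraries, 2 in 1 group, were analysed. Whole-number counts per transcript model were deposited by the authors, not normalized, with models from TALON on mm10 and GENCODE M21, per the file headers and the text beside the files. The sources used here name no aligner, filter or version. Per gene, counts were summed over models with Python 3.11.15 (scipy 1.17.1, pandas 2.3.3), and CPM used reads in annotated mouse genes, without ERCC spike-ins and antisense or intergenic loci. Where only some model classes were counted, the total was that of those classes. Fisher's exact test with Benjamini-Hochberg adjustment compared genes with at least 10 reads summed; called genes had an adjusted p under 0.05 and 2-fold. Exons needed 20 informative reads in each library. Intervals are exact Clopper-Pearson 95% intervals of counting error only, since reads are not proven separate molecules, and a count of 0 allows 3 counts. The floors were 3.76 CPM and 1.87 CPM. TMM (edgeR 4.0.16) and DESeq2 1.42.0 size factors (R 4.3.3) served as other scalings. The code was tested on simulated data. Fewer cells of a type and less RNA per cell cannot be told apart in such bulk tissue.

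The members and lists were chosen with earlier results of these data known. Every member was to be named, with full statistics for called members and the highest of each complex; pseudogenes with at least 20 reads and 50% shared words were to be named, as were exons with a pooled inclusion between 5% and 95% or a called difference. Protein sequences and the Lexogen spike-ins were not used here.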

Additional observations from a re-analysis of the deposited data

Results flagged for a closer look

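Antisense reads, from models on the strand opposite to a gene and outside the comparisons above, lay over subunit genes at 21 reads in replicate 1 (9 genes) and 150 reads in replicate 2 (23 genes). In replicate 2, 6 genes had at least 10, above the 3 reads that a count of 0 allows: Sdhc with 20, Uqcrc1 with 19, Atp5f1 with 15, Cox5a with 14, Atp5g2 with 13 and Sdha with 12. In replicate 1 these genes had at most 5. Sdhc stood out in proportion, with 20 antisense beside 214 sense reads. Over the whole libraries, antisense and intergenic loci together held 24844 reads in replicate 1 and 112291 in replicate 2. The counts over subunit genes are not scaled, and the share of all genes with antisense reads was not taken. No control sample exists to set these against.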

How the results depend on the processing

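No member was called lower under any alternative, and Atp5g1, Sdhb and Uqcrq were called under all 8 settings of scaling, model class and count filter. The median log2 ratio of the members, 0.91, was 0.857 with TMM factors, 0.866 with DESeq2 size factors, 0.856 on the total of all mouse reads, 0.786 without Atp2a1, 0.815 on Known models and 0.991 without incomplete and Genomic models. The 11 calls (5.78% of all tested genes) became 8 under TMM (5.05%), DESeq2 (5.22%) and all mouse reads (5.05%), 4 without Atp2a1 (4.3%), 6 on Known models (4.45%), 19 without incomplete and Genomic models (6.9%) and 33 at a 1.5-fold minimum (10.2%). At a minimum of 50 reads, 11 of 38 members were called higher (10.3%). The ratio of Sdha fell below 1 in 3 settings: 0.973 without Atp2a1, 0.787 on Known models and 0.885 without incomplete and Genomic models. Over all genes, 468 were called higher and 443 lower; Known models gave 255 higher and 587 lower, so higher calls were 30.3% of calls in place of 51.4%, and a minimum of 50 reads left 251 lower among fewer genes tested. Exons called over all genes went from 9 to 1 on Known models, with fewer exons tested. Only 1 of 4 complexes kept its highest member per kilobase. Leaving out a library gave 3.09% to 5.91% of reads for the members and 0.952% to 1.54% for the Atp5c1 exon. Beyond the fewer features tested, the cause was not tested. No paired analysis was possible because both libraries belong to 1 group. The depth, at 1 library against 1, gives counting error only and no spread within a condition.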
